A study of Rattus norvegicus with 18 samples.

Results

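The control testis methylome of the adult rat is described from 6 libraries: how methylated its CpG sites were, how the level followed CpG density, how autosomes differed, and how far the libraries spread. The members were chosen by data completeness and not by level. Reads on both strands of a CpG were summed, and the 935078 CpGs with at least 10 reads in all 6 control methylation libraries were kept, of 3746245 CpGs listed in any of them. The libraries came from testes of Wistar rats, an outbred laboratory strain, aged 8 weeks and labelled as the control group. They are 6 of 18 samples in the series, which also holds 3 control RNA libraries and, not used here, 3 RNA and 6 methylation libraries of a chronic sleep restriction (CSR) group. Whether the 6 libraries are of 6 animals is not stated in the labels. Every p-value therefore takes libraries as the replicates, and differences between libraries may be technical. The labels name no further treatment of the control group. In the short codes of the samples, the letter carried by control methylation libraries stands in the RNA codes for CSR libraries. The labels were kept, and the word control rests on them.

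In mammals, DNA methylation sits mainly on the cytosine of the dinucleotide CpG, and the maintenance methyltransferase Dnmt1 copies it onto the new strand after replication. Most CpGs are methylated, whereas CpG islands, the CpG-dense stretches at many promoters, are usually free of it. Methylated cytosine is prone to mutate to thymine, so CpGs have become rare outside islands. In the adult testis most DNA belongs to germ cells, from spermatogonia to spermatids, beside somatic Sertoli, Leydig and peritubular cells. Reduced representation bisulfite sequencing (RRBS) cuts DNA with MspI at CCGG and keeps short fragments, which favours CpG-dense regions, so averages over its CpGs are not averages over the genome. Bisulfite turns unmethylated cytosine into a base read as T, and the methylation level of a CpG is the percent of its reads that still read C. The testis is a bulk sample, so an intermediate level can be a share of cells, of alleles or of molecules, and these cannot be told apart.

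The libraries listed 49647718 (library 2) to 64654061 (library 6) reads at CpG cytosines, and the median kept CpG had 33, 28, 34, 33, 33 and 34 reads in libraries 1 to 6. Libraries 3 and 5 stood apart in which CpGs were read deeply. Their log coverage correlated on average at 0.537 and 0.452 with the other libraries, against 0.602 to 0.634 for the remaining 4. The pair itself reached 0.683, and pairs among the remaining 4 were at 0.725 to 0.757. Mean level, density steps and the autosomes that move without them are given both ways. The mitochondrial genome, whose DNA is taken as almost free of CpG methylation, gave levels of 1.33, 0.988, 0.396, 0.978, 0.527 and 1.81% over 130 CpGs, a guide to how much cytosine escapes conversion. Where both strands of a CpG had at least 10 reads, the mean signed difference, plus minus minus strand, was −0.045 to 0.033 points. Regardless of sign, the strands of a CpG differed by 8.12 to 9.48 points on average. Their Pearson correlation across CpGs was 0.918 to 0.945. In the 3 control RNA libraries, 13 of 21 marker genes were listed, and the rest were not analysed here. The spermatid chromatin gene Tnp1, a transition protein, was at 4298, 4411 and 7730 FPKM, and Tnp2 at 2668, 3186 and 3816 FPKM. The protamine Prm1 was at 0.093, 0.098 and 877 FPKM, so control RNA library 3 stood apart from the other two. The meiotic axis gene Sycp3 was at 131, 136 and 60.1 FPKM, and the germ cell glycolysis gene Pgk2 at 3.67, 2.15 and 3.79. The Leydig cell hormone Insl3 was at 33.0, 38.7 and 56.2 FPKM, while the steroid synthesis genes Cyp17a1 (18.9, 30.6 and 9.26) and Star (4.49, 5.58 and 2.78) were lowest in library 3. The Sertoli junction gene Cldn11 was at 21.3, 22.0 and 19.1 FPKM, and the blood gene Hbb was listed at 0 in all 3. The labels do not link RNA to methylation libraries.

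Over the kept CpGs the mean methylation level was 62.0, 62.2, 61.6, 62.5, 61.3 and 62.6% in libraries 1 to 6, a mean of 62.0% ± 0.513 (SD, n = 6). Libraries 3 and 5 were the lowest, and the whole range was narrow beside the range of levels between CpGs. Without them a different set of CpGs passes the read minimum, and the mean of the other 4 libraries was 64.2%. The median CpG stood far above the mean, at 84.6 to 86.4%, because the levels lay at both ends. The X chromosome, of which a male has 1 copy, averaged 66.3% ± 0.646 over 7058 CpGs against 62.0% ± 0.512 over the 924048 autosomal CpGs. The Y averaged 79.7% ± 1.49 over 288 CpGs. The X and Y were not brought to the CpG density of the autosomes, and no cause of these differences was tested.

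Most CpGs were either nearly free of methylation or nearly full. CpGs under 10% made up 24.1, 24.0, 24.6, 23.4, 24.9 and 22.6% of the kept CpGs in libraries 1 to 6 (23.9% ± 0.810, SD, n = 6), lowest in library 6 and highest in library 5. CpGs at 90% or more made up 45.2, 45.3, 43.6, 44.5, 42.8 and 45.0% (44.4% ± 0.998), lowest in libraries 5 and 3. The steps between held 9.83% ± 0.520 at 10 to under 40%, 3.74% ± 0.244 at 40 to under 60% and 18.1% ± 1.00 at 60 to under 90%. Not one methylated read was seen at 18.9% ± 0.679 of CpGs, and every read was methylated at 21.9% ± 1.61. In bins of 5 points the low end, 0 to 5%, held 21.0% of CpGs, the top bin, 95 to 100%, held 32.4%, and the emptiest bin, 45 to 50%, held 0.751% ± 0.0629. These shares include counting error, which moves a CpG across a boundary more readily in the middle of the scale than at its ends.

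**Figure D1:**
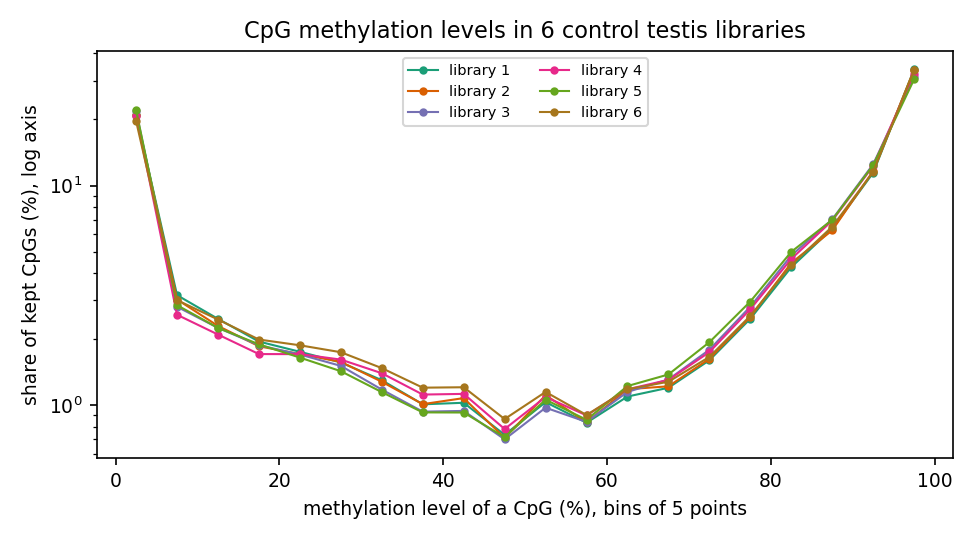
Share of the kept CpGs (percent, vertical axis) by methylation level in bins of 5 points (horizontal axis) for the 6 control libraries, on a logarithmic vertical axis. The curve has 2 peaks, with 21.0% of CpGs at 0 to 5% and 32.4% at 95 to 100%, and its floor of 0.751% at 45 to 50%, in each case the mean over libraries.

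Membership of a class was often not shared by all 6 libraries. Of the 935078 CpGs, 40.5% fell in the same class in all 6 libraries. They were mostly the ends: 155454 CpGs (16.6%) were under 10% in all 6 and 193096 (20.7%) were at 90% or more in all 6. In contrast, 485 CpGs stayed within 40 to 60% in all 6. A CpG of true level near the middle is easily carried out of this class by counting error at these depths.

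Single regions show what these classes look like on the chromosomes, in coordinates of the rn6 build and without gene context, since no rn6 annotation was used here. They were picked on their levels by rule, as the 1000-bp tiles with most kept CpGs in a class, so their levels are a description. The largest unmethylated tile was chr10:6869001-6870000, with 71 kept CpGs of 101 listed, at 3.87, 0, 0.353, 0.421, 0 and 7.71% in libraries 1 to 6. Libraries 1 and 6 were above the rest there, and every library stayed under 10% as the rule required. Next came chr19:54110001-54111000, with 70 kept CpGs at 0.271 to 2.71%, and chr1:78354001-78355000, with 67 kept CpGs at 0.095 to 0.986%. Stretches free of methylation also ran over long rows of neighbouring CpGs. With gaps of at most 500 bp, 4509 autosomal runs of 10 or more kept CpGs had each CpG under 10% in all 6 libraries. The longest held 51 CpGs over 531 bp (chr16:10661791-10662321), followed by 50 CpGs over 1153 bp (chr19:24846290-24847442) and 47 CpGs over 1041 bp (chr9:10054021-10055061).

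Fully methylated stretches were shorter in CpGs, although more CpGs belonged to that class. The tile with most kept CpGs at 90% or more in all libraries was chr10:4510001-4511000, with 38 kept of 40 listed CpGs, at 94.9, 97.3, 95.2, 94.9, 95.2 and 95.6% (95.5% ± 0.904, SD, n = 6). Library 2 was the highest, and the other 5 lay within 1 point of each other. The others were chr9:38030001-38031000 with 37 kept CpGs at 96.1% ± 0.879 and chr2:29687001-29688000 with 36 kept CpGs at 95.3% ± 1.32. Of runs with 10 or more CpGs at 90% or more in all 6 libraries there were 129, against the 4509 unmethylated ones. The CpGs that could form them made up 20.7% of autosomal kept CpGs, against 16.7%. CpGs with a mean of 90% or more lay at a mean density of 10.6 per tile, against 39.6 for those under 10%. Of the former 45.6% stayed in their class in all 6 libraries, against 71.1%, and 1 CpG outside the class ends a run. The part of density and of this rule in the contrast was not tested. The longest were 23 CpGs over 319 bp (chr3:166911312-166911630), 23 CpGs over 1130 bp (chr5:75171487-75172616) and 18 CpGs over 439 bp (chr8:128172128-128172566).

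Intermediate tiles were rare: 537 autosomal tiles with at least 3 kept CpGs averaged 40 to 60% in every library. The tile with most CpGs was chr19:25886001-25887000, with 35 kept of 41 listed, at 42.7, 53.6, 53.8, 50.2, 51.7 and 51.9%. Library 1 was lower than the other 5, which lay within 4 points. Single CpGs of this tile ranged from 16.3 to 97.8% in mean level, and 20 of 35 lay within 30 to 70%. The next were chr5:144252001-144253000, at 49.6, 42.5, 51.7, 47.1, 46.7 and 49.6% with 19 of 26 CpGs within 30 to 70%, and chr5:165720001-165721000, at 53.8, 48.0, 51.1, 58.7, 51.0 and 54.3% with 17 of 21. An intermediate tile is therefore not always made of intermediate CpGs. Of the 3168 CpGs in the 537 tiles, 51.5% averaged 30 to 70%, 13.1% were under 20% and 19.2% were at 80% or more. All CpGs were within 30 to 70% in 91 tiles, while 233 tiles held both a CpG under 20% and one at 80% or more. Imprinted regions, where the allele from 1 parent is methylated, are the classic source of intermediate levels in somatic tissue, and whether any of these tiles is imprinted was not tested.

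CpG density, counted as CpGs listed in any control library per 1000-bp tile, ordered the levels. This counts covered CpGs and not those of the sequence, so a dense tile covered in part can count as sparse. CpGs in tiles with under 10 CpGs were at 81.7% ± 0.369 (SD, n = 6; 367526 CpGs), and those with 10 to 19 at 70.7% ± 0.569 (298121 CpGs). Those with 20 to 29 were at 47.3% ± 0.774 (109147 CpGs) and those with 30 to 49 at 16.5% ± 0.701 (89742 CpGs). In the densest class, 50 or more, the levels were 3.35, 3.34, 2.56, 3.38, 2.48 and 4.56% in libraries 1 to 6 (3.28% ± 0.748; 70542 CpGs). Library 6 was highest and libraries 3 and 5 lowest here, as they were in the mitochondrial level, and the part of incomplete conversion in the differences between libraries was not tested.

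Each step down in level was far larger than its spread between libraries. Within libraries the level changed by −11.0 ± 0.258 points from the first class to the second (SD, n = 6), by −23.4 ± 0.250 to the third, by −30.8 ± 0.314 to the fourth and by −13.3 ± 0.132 to the densest. All 6 libraries moved down at each of the 4 steps, and each step had an exact two-sided sign-flip permutation p = 0.03125, adjusted 0.03125, which is the smallest that 6 libraries allow. Without libraries 3 and 5 the steps were −10.6, −22.8, −31.2 and −13.9 points. The sizes of the steps depend on how density is counted. With density taken from kept CpGs alone they were −28.2, −26.0, −10.5 and −0.833 points, the last not called (adjusted exact p = 0.0625), and the class of 20 to 29 was at 20.1%. In finer classes the mean fell from 84.0% at 1 to 4 CpGs per tile to 52.9% at 20 to 24, 38.8% at 25 to 29, 26.9% at 30 to 34 and 9.97% at 40 to 44, and reached 1.72% at 100 to 142.

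**Figure D2:**
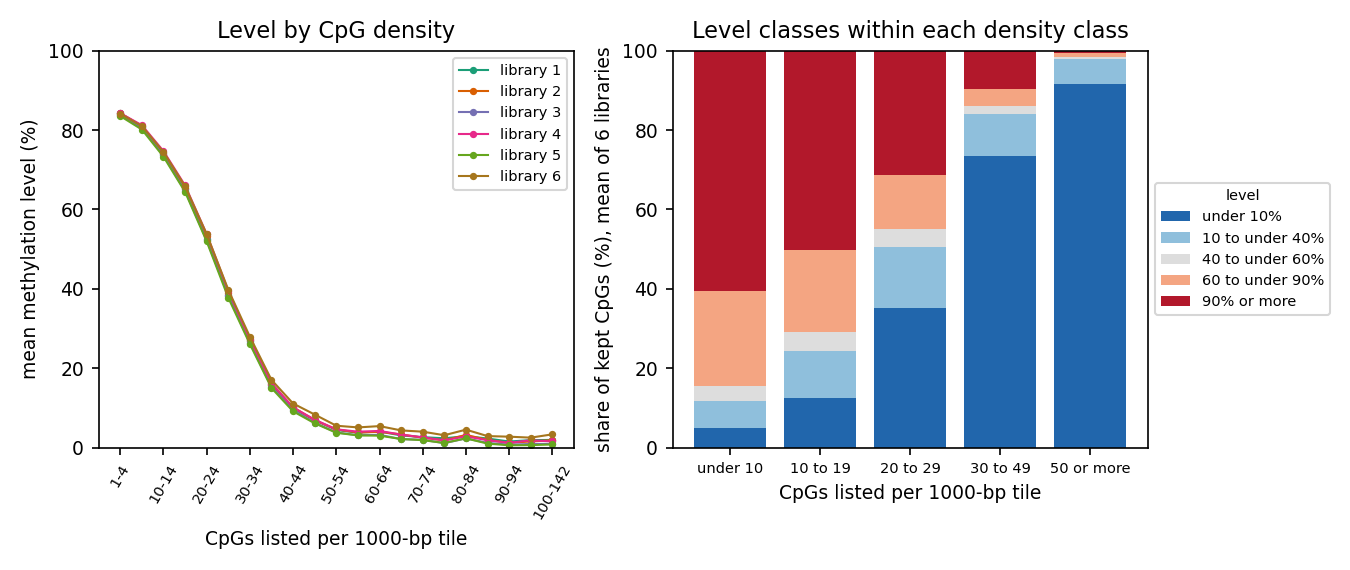
Left, mean methylation level (percent) by CpGs listed per 1000-bp tile, one line per control library; right, share of kept CpGs (percent, mean of 6 libraries) in 5 level classes, stacked, for each density class. The level falls from 84.0% at 1 to 4 CpGs to 1.72% at 100 to 142 CpGs per tile, and the share under 10% grows from 4.84% to 91.6% while the middle class stays thin.

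The mean level of a class hides which CpGs make it up. In the class of 20 to 29 CpGs per tile, whose mean of 47.3% lies near the middle, 35.1% of CpGs were under 10%, 31.3% were at 90% or more and 4.47% were at 40 to under 60%. The class was thus a mixture of both ends of the scale more than a set of intermediate CpGs. The share under 10% was 4.84% in the sparsest class, 12.4% at 10 to 19, 73.5% at 30 to 49 and 91.6% in the densest. The share at 90% or more went the other way, from 60.5% through 50.2% and 9.68% to 0.566%. Across 125988 tiles with at least 3 kept CpGs, the Spearman correlation of level and density was −0.374 to −0.384 in the 6 libraries. Tiles of a library share its depth and preparation, so this describes tiles and carries no p.

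Depth also moved with density, and not in the same way in every library. Spearman correlations of density with reads per CpG across tiles were −0.101, −0.142, 0.048, −0.184, 0.160 and −0.208, positive in libraries 3 and 5 alone. The densest class held 7.63 and 9.41% of the reads of libraries 3 and 5, against 5.12 to 6.54% in the other 4. Its mean reads per CpG were 37.2, 30.0, 41.2, 30.6, 50.7 and 31.2. With each CpG weighted by its reads the mean level was 56.4% in library 5, 60.3% in library 3, and up to 67.1% in library 6 (63.1% ± 4.03, SD, n = 6), against an SD of 0.513 with equal weights. CpGs that reached 10 reads in a library but not in all 6, which numbered 607752 to 989000 per library, averaged 56.9, 59.1, 53.7, 62.9, 45.3 and 64.3%, at mean densities of 20.8, 19.6, 21.9, 17.8, 25.7 and 17.2 CpGs per tile. The range between libraries was thus wide on CpGs that not all of them covered and narrow on those that all did, and libraries with denser CpGs had the lower levels.

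**Figure D3:**
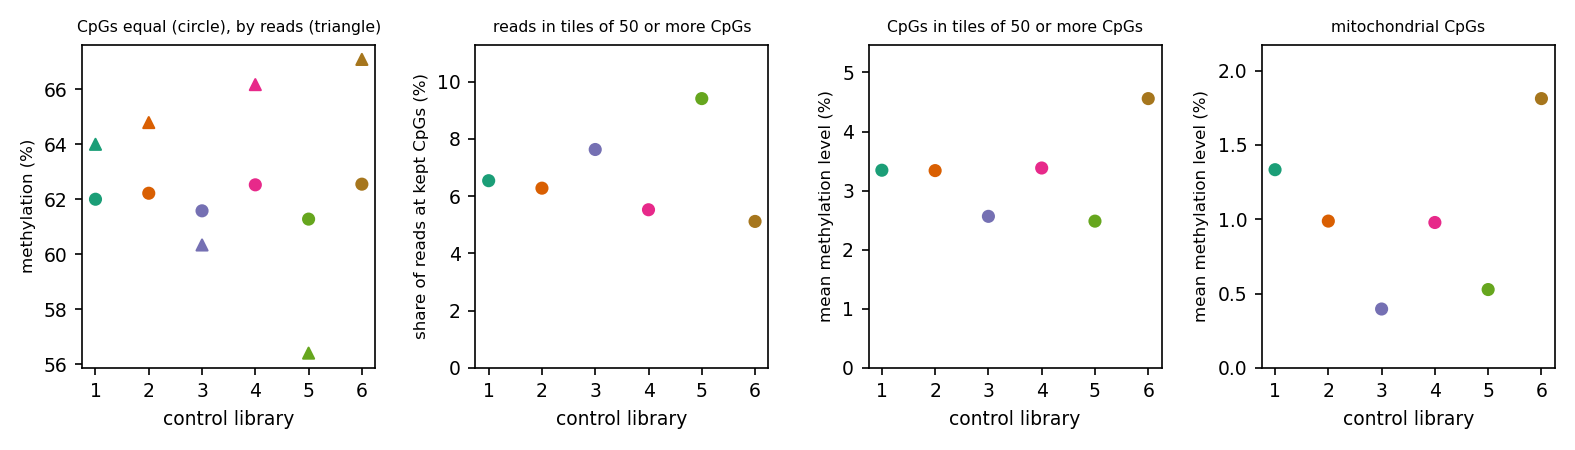
Values of each control library, one point each: mean methylation level (percent) with equal weights (circles) and weighted by reads (triangles), the share of reads (percent) in tiles of 50 or more CpGs, the mean level (percent) of CpGs in those tiles, and that of mitochondrial CpGs. Equal weights place the libraries between 61.3 and 62.6% and weighting by reads between 56.4 and 67.1%, and libraries 3 and 5 have the highest read share and the lowest value in the other panels.

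Density did not settle the level everywhere. Of 10538 tiles with 30 or more CpGs, 359 (3.41%) were at 90% or more in all 6 libraries, although the density classes they belong to averaged 16.5% or less. The autosomal ones, 354 of 10417, were scattered over 262 windows of 1 Mb. Chromosome 20 held 25 among its 337 dense tiles (7.42%), chromosome 16 held 20 of 357 (5.60%) and chromosome 17 held 5 of 353 (1.42%). At still higher density, 3911 autosomal tiles had 50 or more CpGs, and 40 of them were at 50% or more in all libraries, a description chosen after the values were seen. Of these 40, 14 lay on chromosome 7, which had 274 such dense tiles, and 9 on chromosome 2. Some lay near one another, such as 3 tiles within chr7:22054001-22455000 at 70.8 to 91.2%, 3 within chr7:711001-720000 at 66.8 to 85.9% and 3 within chr2:123001-551000 at 67.9 to 85.5%. The reverse exception, under 10 listed CpGs per tile yet under 10% in all libraries, was met in 1106 of 64149 tiles (1.72%). Dense tiles covered in part could be among them.

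Autosomes differed from one another by small amounts that were steady across libraries. Their means ran from 58.0% (chromosome 10) to 67.1% (chromosome 13), an SD of 2.04 points between the 20 autosomes, while the difference of an autosome from the others had a median SD of 0.105 points between libraries. By the exact sign-flip permutation test with Benjamini-Hochberg adjustment, 12 autosomes were higher than the others (60% of the 20 tested) and 7 were lower (35%), each with adjusted p = 0.0329. Chromosome 14 was not called, at −0.038 points (exact p = 0.5). Since every autosome is set against the rest, a shift of 1 moves the others the opposite way by construction, and the test asks only whether all libraries share a sign.

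**Figure D4:**
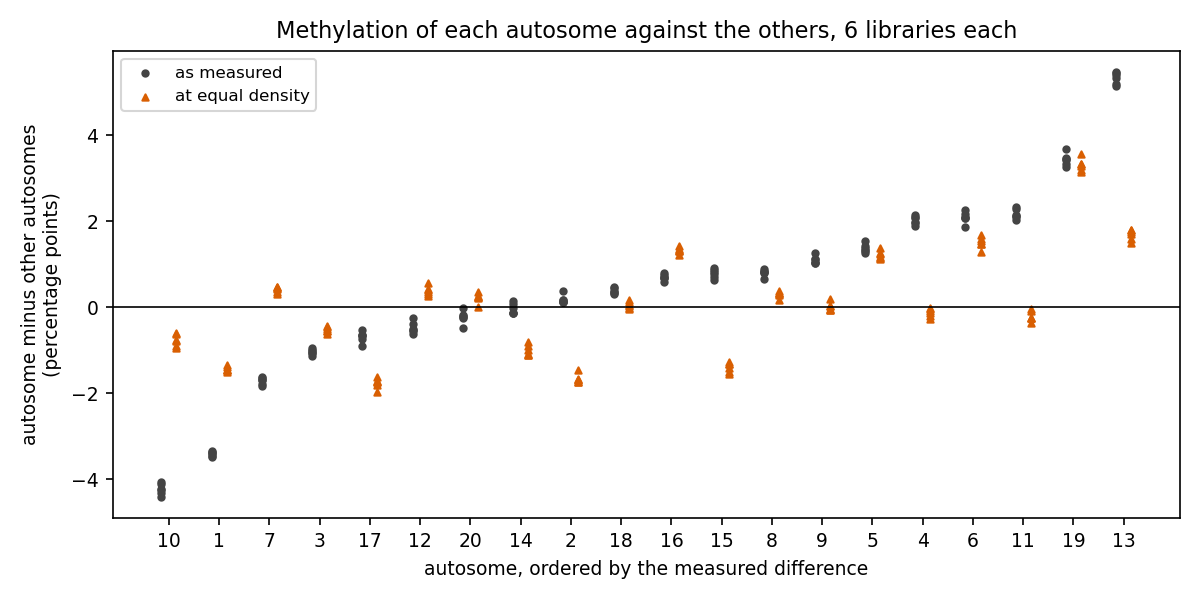
Difference in mean methylation level between each autosome and the other autosomes (percentage points) as measured and at equal CpG density, with a point for each control library. As measured the autosomes span 58.0 to 67.1% in mean level and at equal density 60.3 to 65.2%, with chromosomes 13 and 19 at the top; chromosome 19 as measured falls below the others when CpGs are weighted by reads.

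The highest autosome was chromosome 13, above the others by 5.33 ± 0.134 points (SD, n = 6), between 5.14 and 5.47 in the libraries. Chromosome 11 was higher by 2.17 ± 0.118 points. Chromosome 19 stood between them at 3.44 ± 0.144 points with equal weights, but at −0.969 ± 0.693 with CpGs weighted by reads (adjusted exact p = 0.0694). This reversal rests on very deep CpGs, the deepest 0.1% of CpGs of a library, its cut taken over the kept CpGs. They held 10.3% of the reads of chromosome 19, against 3.16% over all autosomes and 13.3% on chromosome 14. Without them the value weighted by reads was 3.64 ± 0.683. The tile chr19:56338001-56339000 alone, picked out after its depth was seen, had 49 such CpGs with 529308 reads, 6.15% of the reads of the chromosome, at a mean level of 15.8%. The lowest autosomes were chromosome 10, at −4.24 ± 0.127 points, chromosome 1, at −3.41 ± 0.052, and chromosome 7, at −1.71 ± 0.080. With each 1 Mb window weighted equally, an alternative added after the data were seen, 9 autosomes were called higher and 8 lower. Chromosome 7 was then at −0.089 points and not called (adjusted exact p = 0.0938), while chromosomes 12, 17 and 20 were at −3.02, −2.52 and −2.44. Chromosomes 19 and 11 were at 1.35 and 0.948 points in that setting.

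Density differed between the autosomes too. Chromosome 13 had a mean density of 15.8 CpGs per tile and chromosome 10 of 20.0, and 4.69% of the kept CpGs of chromosome 13 lay in the densest class, against 7.72% for the other autosomes, while chromosome 10 had 9.20% against 7.48%. Across the 20 autosomes the Pearson correlation of level and mean density was −0.739, a description in which all points come from the same libraries. With each autosome brought to the same makeup of density classes, the range of means shrank from 9.07 to 4.89 points and the SD between autosomes from 2.04 to 1.22. At equal density 8 autosomes were higher (40% of 20) and 9 lower (45%), each called one with adjusted exact p = 0.0368. Chromosomes 9, 18 and 20 were not called.

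At equal density chromosome 19 was the highest, by 3.30 ± 0.144 points, and stayed above the others in each alternative that was run, at 1.91 to 3.77 points. Chromosome 13 followed with 1.68 points (0.868 to 3.65 over the alternatives) and chromosome 6 with 1.50 (0.552 to 1.76). The lowest were chromosome 17, at −1.77 points (−2.84 to −0.851), chromosome 2, at −1.67, and chromosome 1, at −1.44 (−2.56 to −1.27). For chromosome 2 the sign reversed to 0.311 points with CpGs weighted by reads, and it was −0.200 and not called with 1 Mb windows weighted equally (adjusted exact p = 0.0694). Equal density thus took chromosome 10 from −4.24 to −0.776 points, and chromosome 19 from 3.44 to 3.30. For chromosome 10 the alternatives ran from −2.84, with density from kept CpGs, to −0.381 in windows centred on each CpG.

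For 7 autosomes the direction changed between the measures. Chromosomes 2, 4, 11 and 15 went from 0.173, 2.02, 2.17 and 0.786 points above the others as measured to −1.67, −0.127, −0.209 and −1.40 at equal density. Chromosomes 7, 12 and 20 went from −1.71, −0.473 and −0.227 to 0.412, 0.387 and 0.217 points, the last of these not called (adjusted exact p = 0.0694). None of these values but that of chromosome 15 kept its sign at equal density over the 18 alternatives. They ran from −1.80 to 0.311 points for chromosome 2, −0.458 to 0.678 for chromosome 4, −0.578 to 0.526 for chromosome 11, −0.525 to 1.36 for chromosome 7, −0.0253 to 0.770 for chromosome 12 and −0.581 to 0.337 for chromosome 20. The lowest value of chromosome 20, with CpGs weighted by reads, was called lower (adjusted exact p = 0.0391). Chromosome 15 ran from −1.57 to −0.0926, and this last value, with density from kept CpGs, was not called (adjusted exact p = 0.0987).

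Single libraries also moved these small differences. At equal density chromosome 4 was at 0.0726 points without library 5 and −0.0677 without library 3. Chromosome 11 was at −0.0424 without library 2 and −0.0780 without library 4. Chromosome 12 was at 0.632 without library 2 and 0.163 without library 5, and chromosome 20 at 0.106 without library 3 and 0.337 without library 6. As measured, chromosome 2 was at 0.0298 without library 4 and 0.296 without library 3. Chromosome 12 as measured was at −0.132 without library 2, −0.790 without library 5 and −0.113 without library 6. Chromosome 20 as measured was at −0.0733 without library 4, −0.367 without library 5 and 0.277 without library 6. Without both libraries 3 and 5, chromosomes 4, 7, 12 and 20 were at 0.159, 0.159, 0.0712 and −0.0124 points at equal density, and chromosomes 2, 12, 15 and 20 at 0.443, −1.08, 1.26 and −0.606 as measured. Chromosomes 2 and 12 as measured changed sign under other read filters too, at −0.272 for chromosome 2 with a minimum of 20 reads and 0.263 for chromosome 12 with both cytosines required.

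Within density classes single autosomes departed from the rest, in values picked after they were seen and given without a test. On chromosome 7 the densest class was at 8.74% against 2.77% on the other autosomes, and the class of 30 to 49 at 23.4% against 15.6%, whereas its CpGs at 10 to 19 were lower than elsewhere in all libraries, by −1.49 to −1.18 points. This is the chromosome with 14 of the 40 dense methylated tiles. Chromosome 16 was at 27.0% against 15.8% in the class of 30 to 49, and its densest class was −1.55 to −1.21 points from the others. Chromosome 17 went the other way in the class of 30 to 49, by −8.77 to −7.85 points. On chromosome 19 the largest rises were 76.5% against 70.5% at 10 to 19 and 53.6% against 47.0% at 20 to 29. The sparsest class was also higher, at 83.5% against 81.8%, as was that of 30 to 49, at 16.6% against 16.2%. Only the densest was lower, at 2.37% against 3.24%. Chromosome 12 was higher at 20 to 29, with 54.1% against 46.8%, and at 30 to 49, with 25.1% against 15.8%. It was lower in the sparsest class, with 79.7% against 81.9%, and at 10 to 19, with 69.4% against 70.8%. Its densest class was lower too, at 2.80% against 3.22%.

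On a finer scale, 2038 autosomal windows of 1 Mb with at least 100 kept CpGs ran from 18.2 to 91.4%, with a median of 63.7% and the central 90% of windows between 41.8 and 81.8%. The median SD of a window between libraries was 0.858 points, so windows differed much more than libraries did. Across windows the Spearman correlation of level and mean density was −0.712, against −0.379 across tiles, again a description. The lowest window, chr18:30000001-31000000, was at 18.2% ± 1.08 (SD, n = 6; 707 CpGs), where its density makeup alone would give 39.1%. The next were chr17:43000001-44000000, at 20.3% ± 0.723 with 47.0% by its density, and chr14:113000001-114000000, at 21.1% ± 1.28 with 40.5%. The highest was chr15:16000001-17000000, at 91.4% ± 1.02 where density gives 79.8%, followed by chr1:268000001-269000000, at 90.2% ± 1.03 with 76.3%, and chr6:17000001-18000000, at 89.9% ± 1.87 with 55.1%. All 6 extreme windows were farther from the middle than their density makeup would place them, as picking the extremes favours.

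The spread of a single CpG between libraries was larger than counting error. The SD over the 6 libraries was 5.25 points for the median CpG, 13.2 at the 90th percentile and 24.3 at the 99th. The root mean square SD was 8.37 points, where binomial counting at the same depths gives 5.08, a variance ratio of 2.72. PCR reads without molecular identifiers are not independent molecules, so the binomial value covers counting error only, and how much of the excess is biological was not tested. On 2 strands of the same CpG in the same library, over another set of CpGs, the variance ratio was 2.88 to 3.71. The ratio between libraries itself moved with the read minimum, from 2.35 at 5 reads to 3.37 at 20. The sizes of the strand and library ratios are therefore not directly comparable.

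The excess was present at every level and density. The root mean square SD against the binomial one was 4.31 against 2.54 points for CpGs with a mean under 10%, 13.2 against 7.73 at 10 to under 40%, 17.3 against 9.31 at 40 to under 60%, 11.8 against 7.04 at 60 to under 90% and 5.39 against 3.76 at 90% or more. Their variance ratios were 2.87, 2.93, 3.44, 2.78 and 2.06, so fully methylated CpGs lay closest to counting error and intermediate ones farthest from it. By density the ratio went from 2.62 in the sparsest class through 2.71, 2.84 and 2.97 to 3.57 in the densest. By autosome it was 2.59 to 2.87.

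**Figure D5:**
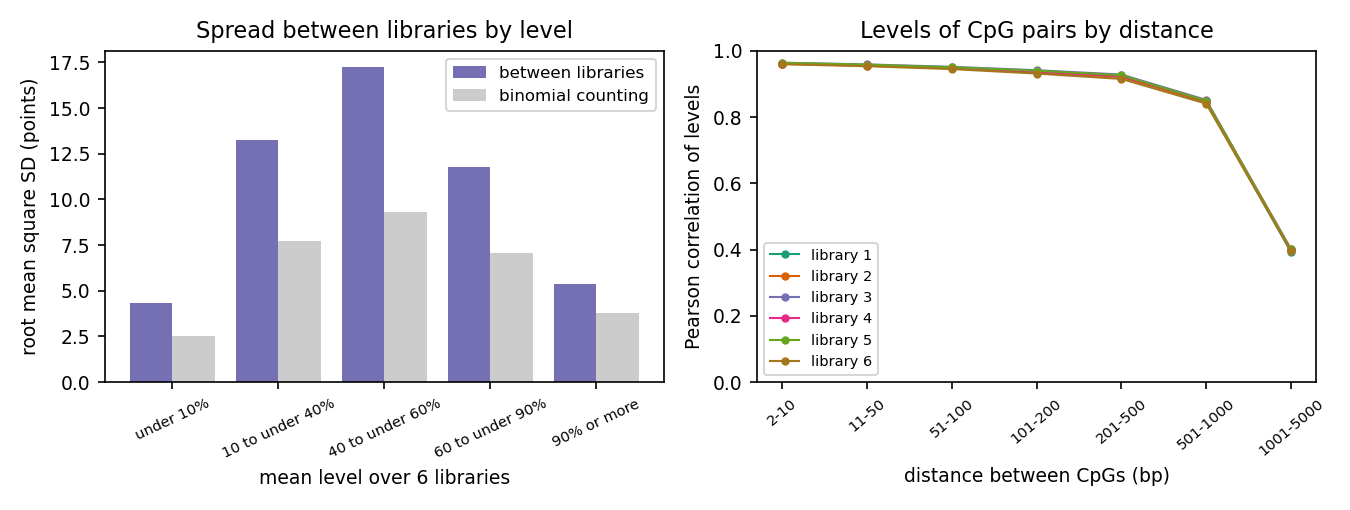
Left, root mean square SD of CpG level between the 6 control libraries (percentage points) by mean level class, beside the SD that binomial counting gives; right, Pearson correlation of levels of CpG pairs by distance (bp), one line per library. The observed SD is above the binomial one in all 5 classes, 17.3 against 9.31 points at 40 to under 60%, and the correlation stays near 0.962 to 0.847 up to 1000 bp before it drops to 0.398.

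An SD of 20 points or more was reached by 21307 CpGs (2.28%). A pattern noticed after the values were seen was that some CpGs took levels near 0, 50 or 100% only, in each library within 15 points of one of these and with at least 2 of them present. There were 12926 such CpGs (1.38%), and they made up 4017 (18.9%) of those with an SD of 20 or more. Without them the variance ratio was 2.55. The rule asks for levels that differ between libraries, so it favours a large SD (median 16.8 points) and a lower ratio without these CpGs. How many CpGs counting error alone would place in the set was not tested. Wistar rats are outbred, and a C-to-T variant reads as an unmethylated CpG after bisulfite, but genotypes were not measured. Among tiles with 10 or more kept CpGs, of which there were 20696, the widest spread was at chr6:12082001-12083000, at 85.9, 63.6, 19.9, 59.7, 18.3 and 92.0%. Libraries 3 and 5 were low there and 1 and 6 high, with 292 to 471 reads per library. The tile chr6:6427001-6428000 was at 0, 1.71, 1.22, 3.42, 0.277 and 72.7%, so library 6 alone was high. Its 11 kept CpGs had 132 to 1083 reads per library. At chr8:14847001-14848000 the levels were 98.3, 38.4, 40.5, 41.1, 96.9 and 47.5%, near full in libraries 1 and 5 and between 38.4 and 47.5% in the other 4. Most tiles were far steadier: over the 125988 tiles with at least 3 kept CpGs, the median SD was 3.53 points and the 99th percentile 17.0. Their variance ratio to binomial counting was 5.83, against 2.72 for single CpGs.

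The 15 pairs of libraries resembled each other to a similar degree. Their mean absolute difference per CpG ran from 6.83 points (libraries 3 and 5) to 7.60 (libraries 2 and 6), and their Pearson correlation across CpGs from 0.953 to 0.964. Each pair's variance ratio to counting error was at least 2.39, and whether repeat libraries of 1 sample would reach this value was not tested. The 6 were counted as separate because the labels list them so. The closest pair was the one with a coverage profile of its own. CpGs taking levels near 0, 50 or 100% only were at the same one of these in 51.3 to 65.8% of cases, depending on the pair. Their rule asks for at least 2 of these levels among the 6 libraries, so some pairs must differ at each such CpG. These shares therefore cannot show whether the libraries are of separate animals.

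Neighbouring CpGs had similar levels over short distances. At 2 to 10 bp the Pearson correlation across pairs of CpGs averaged 0.962 over the libraries, and 84.4% of pairs were in the same level class. It was 0.948 at 51 to 100 bp, 0.923 at 201 to 500 bp and 0.847 at 501 to 1000 bp, and dropped to 0.398 at 1001 to 5000 bp, where 43.1% of pairs shared a class. The values differed little between libraries, from 0.915 to 0.928 at 201 to 500 bp. CpGs close together often share reads, and pairs overlap, so these correlations describe CpGs and carry no p.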

How the data were processed

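Methylation was measured by RRBS in 6 control testis libraries. Per the labels' protocols, DNA was cut with MspI, size selected, ligated to methylated adapters, treated with bisulfite and amplified. Per the submitters' processing notes, Trim Galore, Bismark, SAMtools and the rn6 build were used, with versions and settings not given in the sources used here. Each deposited table holds a read count (coverage) for every CpG cytosine, with the percent of reads carrying C and carrying T, per the file headers. No deposited coverage was under 5 reads. Methylated reads were recovered as coverage times percent, and all products were whole to within what rounding of the percent allows. For the tissue check, the authors deposited FPKM values, made with Trimmomatic, HISAT2, StringTie and rn6 per the submitters' processing notes. Of 7016 accessions, 6911 matched a symbol in the RefSeq table of assembly GRCr8.

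The 2 cytosines of a CpG were added together, and a CpG entered with 10 reads or more in every one of the 6 libraries, without an upper limit. Of the listed positions 2184 lay next to another listed CpG position, 541 of them kept. Density is the number of CpGs listed in any of the 6 libraries in a fixed tile of 1000 bp. Neighbouring density classes, and each autosome against the others, were compared within libraries by a two-sided exact sign-flip permutation test over 64 assignments with Benjamini-Hochberg adjustment over the steps or autosomes and a threshold of 0.05. At equal density, each autosome and the others were weighted to the density makeup of all autosomes. Windows, tiles and runs were named by extremes of CpG number, level or SD, 3 of each kind, and autosomes as the 3 highest and 3 lowest or by a change of direction. The members, classes and naming rules were chosen with earlier results of these data known. The observed variance between libraries was set beside p(1 − p)/reads. No molecular identifiers were used, so sampling terms cover counting error only. Alternatives were read minimums, an upper limit on coverage, both cytosines required, libraries left out, weighting by reads, other counts of density, 1 Mb windows weighted equally and limma 3.58.1 in R 4.3.3. Scripts ran in Python 3.11.15 with NumPy 2.4.6, pandas 2.3.3 and SciPy 1.17.1 and were tested on simulated data. No genome or annotation of rn6 was used, so sequences and gene context are not analysed here.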

Additional observations from a re-analysis of the deposited data

Results flagged for a closer look

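Of 103 quantities examined in the 6 libraries, 8 had a lowest or highest library standing apart from the other 5 by more than Dixon's critical value for 6 samples, and chance alone gives about 5.15, 1 in 20. Library 2 was the shallowest, with 49647718 reads at listed CpGs against 59342157 to 64654048 in the others, and a median of 28 reads per kept CpG against 33 to 34. Library 6 had 1669 reads per mitochondrial CpG against 649 to 1031. On chromosome 2 library 4 was highest, at 0.378 points above the other autosomes as measured against 0.108 to 0.164, and at −1.45 points at equal density against −1.74 to −1.67. Library 2 was highest in the methylated tile chr10:4510001-4511000, at 97.3% against 94.9 to 95.6%. Library 1 was lowest in the intermediate tile chr19:25886001-25887000, at 42.7% against 50.2 to 53.8%. Library 6 was at 72.7% in the tile chr6:6427001-6428000, against 0 to 3.42% in the others. This tile was named for its spread and had 132 to 1083 reads per library. No cause of these values was tested.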

How the results depend on the processing

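No paired analysis was possible because only 1 group is analysed and its replicate numbers have no other group to match. The tests here compare classes and autosomes within libraries. The mean level of 62.0% was 60.8% with a minimum of 5 reads (1525772 CpGs), 64.7% with 20 (430308), 63.8% with both cytosines listed in all libraries (472457), 64.2% without libraries 3 and 5, 63.1% weighted by reads, 63.8% weighted by reads without the deepest 0.1% of CpGs, and 60.3 to 63.3% without each library in turn. Each of these settings but plain weighting also changes which CpGs are kept. In the same order of settings, CpGs under 10% were 25.5, 20.7, 21.8 and 21.7%, and 22.7 to 25.9% without each library. CpGs at 90% or more were 46.1% with 20 reads, 45.5% with both cytosines, 46.6% without libraries 3 and 5, and 43.1 to 45.6% without each library. The tile correlation of level and density was −0.354 with 5 reads, −0.389 with 20, −0.392 with both cytosines, −0.355 without libraries 3 and 5, −0.266 with density from kept CpGs, −0.415 in centred windows and −0.386 to −0.367 without each library. Density steps were −10.6, −22.8, −31.2 and −13.9 points without libraries 3 and 5, and −11.5 to −10.8, −24.2 to −23.0, −31.1 to −30.5 and −13.6 to −12.4 without each library. The step to the densest class was −0.833 points (exact adjusted p = 0.0625) with density from kept CpGs; the cause was not tested. The variance ratio was 2.35 with 5 reads, 3.37 with 20 and 3.03 with both cytosines, and CpGs with an SD of 20 or more were 4.54% with 5 reads and 1.50% with 20.

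Signs reversed for single autosomes, and the cause was not tested except for chromosome 19, whose value weighted by reads was 3.64 without the deepest CpGs. At equal density these were chromosome 4 (0.00209 points with 20 reads, −0.179 to 0.0726 without each library, the last without library 5, 0.159 without libraries 3 and 5, 0.216 weighted by reads, 0.147 weighted without the deepest CpGs, 0.678 with density from kept CpGs), chromosome 7 (−0.0469 with 5 reads, −0.525 with density from kept CpGs), chromosome 11 (0.207 and 0.526 in the same settings), chromosome 12 (−0.0253 with 20 reads), chromosome 2 (0.311 weighted by reads) and chromosome 20, not called in the main setting (−0.581 weighted by reads, −0.275 weighted without the deepest CpGs, −0.0371 in centred windows, −0.0124 without libraries 3 and 5, −0.506 with 1 Mb windows weighted equally). As measured they were chromosome 2 (−0.272 with 20 reads, −0.779 with both cytosines), chromosome 12 (0.263 with both cytosines), chromosome 20 (0.277 without library 6) and chromosome 19 (−0.969 weighted by reads). limma called 12 autosomes higher and 7 lower as measured, and 9 and 9 at equal density. With 5 libraries the smallest exact p is 0.0625, so settings that leave out libraries are given as values. At 28 to 34 reads for the median CpG, counting alone gives a root mean square SD of 5.08 points, which limits what single CpGs can show.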
